A study of Mus musculus with 11 samples.

Results

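Cohesin encircles DNA as a ring, ties sister chromatids to each other until they part at cell division, and helps to fold chromosomes into loops. SMC1 and SMC3, joined by a kleisin, form the ring, and in somatic cells each ring carries 1 of the stromal antigen proteins SA1 (STAG1) or SA2 (STAG2). Both forms of the ring occur in the same cell and can be found at the same positions of the genome. The positions described here had SA1 and the full ring in wild-type cells and no SA2 peak in either genotype. They were chosen by peak calls alone, as the wild-type SA1 peaks that overlapped a wild-type SMC1 peak and a wild-type SMC3 peak by at least 1 bp and overlapped no SA2 peak of SA1-null or wild-type cells. They numbered 6568 of 26602 wild-type SA1 peaks, or 24.7%, and covered 3.60 Mb.

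The study mapped cohesin by chromatin immunoprecipitation and sequencing in untreated mouse embryonic fibroblasts, primary cells of a C57BL/6 x 129 Sv background taken at E12.5 and grown in medium with 20% serum. SA1-null cells were probed for SA1, SA2, SMC1 and SMC3, and so were wild-type cells, with input DNA pooled over both genotypes as control. Each group was 1 sample, except that SMC1 in SA1-null cells has 2 samples and 1 peak list. That list is filed under replicate 1, but its deposited name gives both replicates, and it was read here as their joint list. The labels leave it unsaid whether separate embryos gave these samples. Every list holds positions only, with no peak height, so a peak is either called or not, and its width is the only value attached to it. Lists of SA1-null cells held 177 SA1, 6352 SA2, 47003 SMC1 and 34802 SMC3 peaks, and those of wild-type cells 26602, 7741, 24000 and 15564. Depth is unknown, and genotype, depth and the list of 2 replicates cannot be told apart. Where a share carries an interval, it is a 95% Wilson interval over positions, and a difference of shares carries a 95% Newcombe interval. Both cover the counting of positions in these lists and not the spread between cultures, and no p-value was computed.

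Background calls touched few of the 6568 positions. None overlapped an SA1 peak of SA1-null cells, which served as the control for the SA1 antibody, against 12 of all wild-type SA1 peaks (0.0451%). An interval of either input list was present at 4 of them, or 0.0609%, against 62 of all 26602 SA1 peaks (0.233%) in any of these 3 lists.

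The rule split the SA1 peaks in the following way. A full ring, meaning both SMC1 and SMC3, was called at 12897 wild-type SA1 peaks, 48.5% of the list, and 68.9% of the list had no SA2 peak in either genotype. Among the 12897 full-ring positions, 6568 (50.9%) had no SA2 peak and 6329 (49.1%) had one. Of these 6329, 2428 had SA2 in both genotypes, 2243 in SA1-null cells only and 1658 in wild-type cells only. The 6568 positions took up 27.3% of the wild-type SMC1 list (6563 peaks) and 42.1% of the wild-type SMC3 list (6552 peaks). These counts follow from the rule and are given as a description.

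The rule requires SMC1 and SMC3 to overlap SA1, so the values on their placement in wild-type cells are a description. All 3 peaks had at least 1 base in common at 6565 of the 6568. In wild-type cells the SMC1 centre lay a median of 46.5 bp from the SA1 centre and the SMC3 centre 45.5 bp, and 83.2% and 85.2% of the centres lay within 100 bp. The SMC1 peak was the widest of the 3 at 48.9% of the positions, the SA1 peak at 28.0% and the SMC3 peak at 23.1%. Nearly every position had its own ring peak, since 20 wild-type SMC1 peaks and 20 wild-type SMC3 peaks held more than 1 of the positions.

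**Figure D1:**
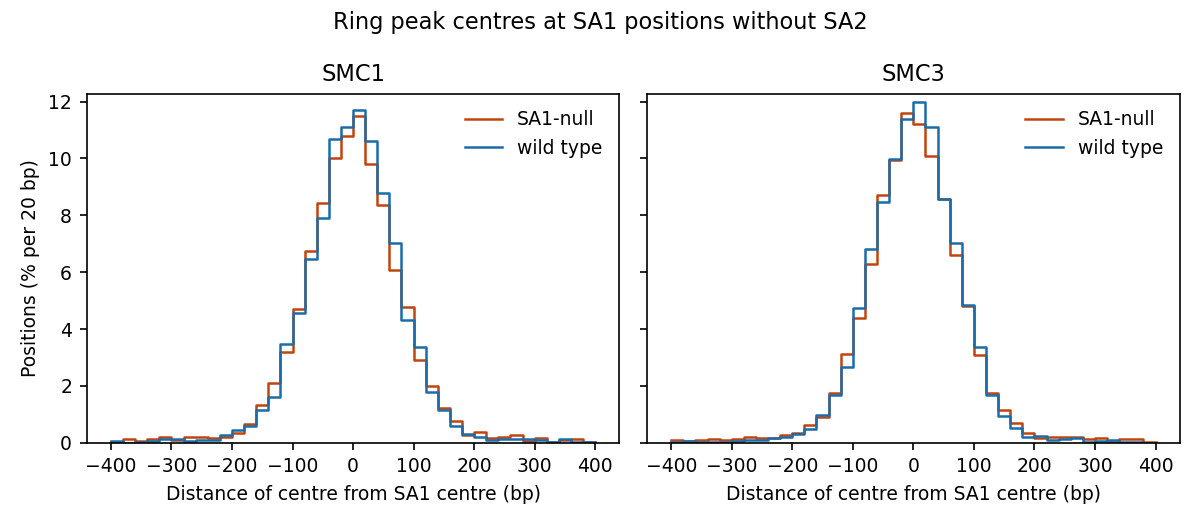
Distance in bp from the centre of each SA1 peak to the centre of the nearest overlapping SMC1 peak (left) and SMC3 peak (right) at the positions without SA2, as percent of positions per 20 bp, for SA1-null (red) and wild-type (blue) cells. In each of the 4 lists over 80% of the centres lie within 100 bp of the SA1 centre, 81.3% and 82.4% in SA1-null cells and 83.2% and 85.2% in wild-type cells.

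The ring was still called at nearly all of these positions when SA1 was missing. Of the 6568, 6535 had an SMC1 peak in SA1-null cells (99.5%, interval 99.3 to 99.6%), while 80.4% of all wild-type SA1 peaks had one. An SMC3 peak was called in SA1-null cells at 6509 (99.1%, interval 98.8 to 99.3%), and at 75.7% of all wild-type SA1 peaks. Both subunits were called at 6488 (98.8%, interval 98.5 to 99.0%), against 73.3% over all SA1 peaks, and neither was called at 12 (0.183%, interval 0.105 to 0.319%), against 17.1% over all SA1 peaks. The SA1-null ring lists were not used in choosing the positions, but the rule requires both wild-type ring peaks, which 48.5% of all SA1 peaks had. The shares over all SA1 peaks are thus not a like comparison. Over all 12897 full-ring positions, with or without SA2, 99.2% had both ring peaks in SA1-null cells. At these 6488 positions SA1-null cells thus had ring peaks where no SA2 peak was called, but the SA1-null SA2 list is far shorter than either ring list, and the lack of an SA2 peak does not show that SA2 was absent.

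Where ring peaks were called in both genotypes, their centres lay close together. Only SA1-null ring peaks that overlapped the wild-type SA1 peak were measured, so short distances follow in part from that condition. A peak shifted off the SA1 peak would count as missing. In SA1-null cells the SMC1 centre lay a median of 48.5 bp from the wild-type SA1 centre, against 46.5 bp in wild-type cells, and the SMC3 centre 47.5 bp, against 45.5 bp in wild-type cells. Measured directly, the SA1-null and wild-type centres of the same subunit lay a median of 43.5 bp apart for SMC1 and 41.5 bp for SMC3. At the full-ring positions with SA2 these distances were 43.0 and 40.5 bp.

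The full-ring positions with SA2 had a slightly higher share of ring peaks in SA1-null cells. Both SMC1 and SMC3 were called in SA1-null cells at 98.8% of the positions without SA2 and at 99.6% of the 6329 with SA2, a difference of -0.823 percentage points (interval -1.14 to -0.520). Against the single groups the difference was -1.01 points where SA2 lay in both genotypes (interval -1.33 to -0.648), -0.594 where it lay in SA1-null cells only (interval -0.982 to -0.110) and -0.856 where it lay in wild-type cells only (interval -1.21 to -0.369). The positions without SA2 also had narrower peaks. The difference shrank to -0.509 points within 10 classes of SA1 width, made from all wild-type SA1 peaks. It was -0.313 points within 10 classes of the mean width percentile of SA1, SMC1 and SMC3. No interval was computed for either value. For SMC1 alone the difference from positions with SA2 in SA1-null cells only was -0.190 points, with an interval (-0.449 to 0.171) that includes 0, and for SMC3 alone it was -0.408 (interval -0.745 to 0.0271).

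Positions with SA1 and a single ring subunit in wild-type cells differed far more, but the wild-type ring calls of the rule define both classes. Of 3853 such positions without SA2, the wild-type ring peak was SMC1 at 3509 and SMC3 at 344. In SA1-null cells 84.0% of the 3853 had both ring peaks (interval 82.8 to 85.1%). The full-ring positions without SA2 stood 14.8 points higher (interval 13.6 to 16.0), or 14.1 points within the same classes of SA1 width. Ring peak widths were not matched. Where called, wild-type SMC1 and SMC3 peaks had medians of 510 and 457 bp at the single-subunit positions. At the full-ring positions without SA2 these were 601 and 551 bp. Where wild-type cells had neither ring subunit, SA1-null cells had both at 28.0% of 8719 SA1 peaks.

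**Figure D2:**
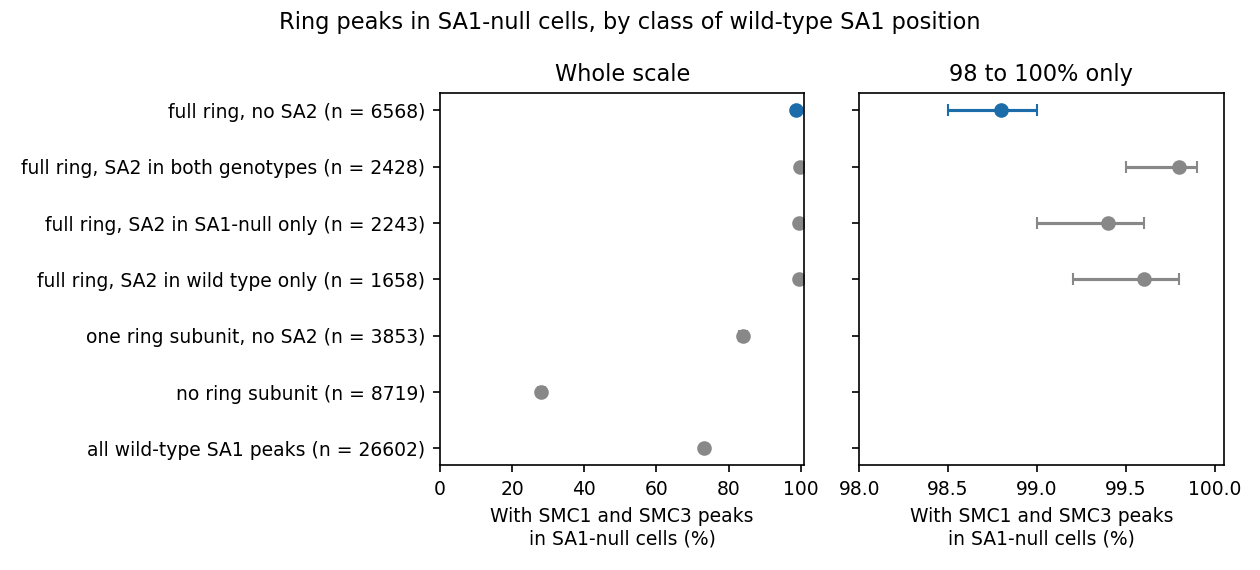
Percent of wild-type SA1 positions at which SA1-null cells had a peak of each ring subunit, by class, with 95% Wilson intervals; the left panel shows the whole scale and the right panel 98 to 100%. The positions without SA2 (blue) stand at 98.8%, the 3 groups with SA2 between 99.4 and 99.8%, positions with 1 ring subunit and no SA2 at 84.0%, and all SA1 peaks at 73.3%.

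The 80 positions that lacked at least 1 ring subunit in SA1-null cells had narrow peaks. Their SA1 peaks had a median width of 481 bp and their wild-type SMC3 peaks 465 bp, against 543 and 552 bp at the positions that had both. SMC3 was the missing subunit at 47 (0.716% of the 6568), SMC1 at 21 (0.320%) and both at 12. SMC3 was also the more often missing over all wild-type SA1 peaks. There SA1-null cells had SMC1 alone at 7.15% and SMC3 alone at 2.45%. The losses thinned out with width, as 36 of the 80 fell in the narrowest of 10 classes of mean width percentile and 3 in the 5 widest. The narrowest class held 1015 of the positions without SA2 and the widest 326, and 96.5 and 100% of these had both ring peaks. Full-ring positions with SA2 showed the same trend, with 96.7% in the narrowest class and 100% in the widest. The next SA1-null peak was usually far away, at a median of 22081 bp for the 33 positions without SMC1 and 14966 bp for the 59 without SMC3, and 3 and 2 of them had such a peak within 1 kb.

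The 12 positions at which SA1-null cells had neither subunit are represented by the first 5 by mean width percentile (mm9 coordinates, counted from 1). On chromosome 4, the SA1 peak from 71945585 to 71946278 lay on wild-type SMC1 and SMC3 peaks of 459 and 483 bp, with the nearest SA1-null ring peaks 82903 bp (SMC1) and 82433 bp (SMC3) away. On chromosome 1, that from 190727953 to 190728451 lay on wild-type peaks of 598 bp (SMC1) and 494 bp (SMC3), and the nearest SA1-null ring peaks were 75378 and 88492 bp away. Both thus lay far from any ring peak of SA1-null cells. The SA1 peak on chromosome 4 from 49264143 to 49264543 was similarly remote, at 70553 bp from SMC1 and 70544 bp from SMC3 in SA1-null cells. The peak on chromosome 6 from 95167342 to 95167994 had ring peaks of SA1-null cells 5385 bp (SMC1) and 5369 bp (SMC3) away, and that on chromosome 1 from 10761778 to 10762385 had them at 11668 and 11519 bp. None of the 5 overlapped an input interval. Their ranks among all 6568 ran from 3961 to 5555, so all 5 lay in the lower part of the list by width.

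Peaks were narrower at positions without SA2 than at full-ring positions with it. The SA1 peaks had a median width of 542 bp (interval of the median 537 to 546) without SA2 and 630.0 bp (626 to 634) with SA2. SMC1 peaks of wild-type cells measured 601 bp without and 650.0 bp with SA2, and wild-type SMC3 peaks 551 and 601 bp. The same order held in the SA1-null lists, which the rule did not use for SMC1 and SMC3. There the SMC1 peaks had medians of 593 bp without SA2 (interval 589 to 597) and 643 bp with SA2 (638 to 646), and the SMC3 peaks 697 bp (693 to 700) and 739 bp (735 to 742). The distributions overlapped widely, since the middle 50% of SA1 widths ran from 458 to 632 bp without SA2 and from 543 to 707 bp with it.

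**Figure D3:**
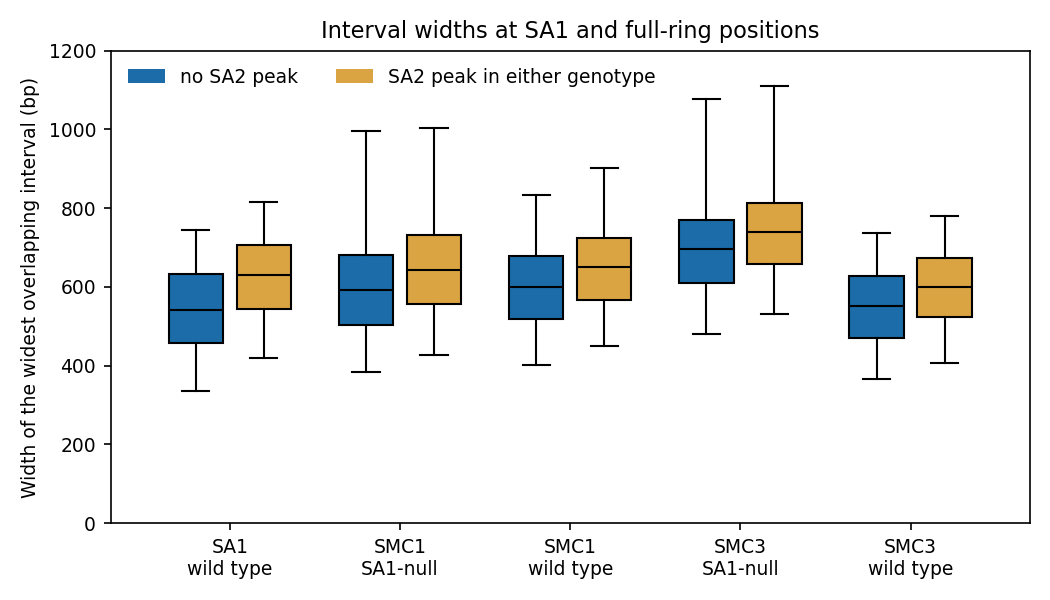
Width in bp of SA1 peaks and of the widest overlapping SMC1 and SMC3 peaks at full-ring positions without SA2 (blue) and with SA2 in either genotype (yellow); line, box and whiskers mark the median, the middle 50% and the 5th to 95th percentiles. In all 5 lists the median is lower without SA2 (542 and 630.0 bp for SA1), and SMC3 peaks of SA1-null cells are the widest at 697 and 739 bp.

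The share of full-ring positions without SA2 was lower the wider the peaks. With the full-ring positions cut into 10 classes of SA1 width, it was 78.4% in the narrowest (213 to 412 bp) and 26.8% in the widest (741 to 3366 bp). Classes of wild-type SMC1 width gave 68.1% and 37.2% at their ends, and classes of SMC3 width 68.1% and 34.5%. With the 3 widths combined as a mean percentile the ends were 78.7% and 25.3%. Every class held positions without SA2, and 326 of them stood among the 1289 widest full-ring positions. As the rule uses the SA2 calls, these shares describe the positions and test nothing.

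**Figure D4:**
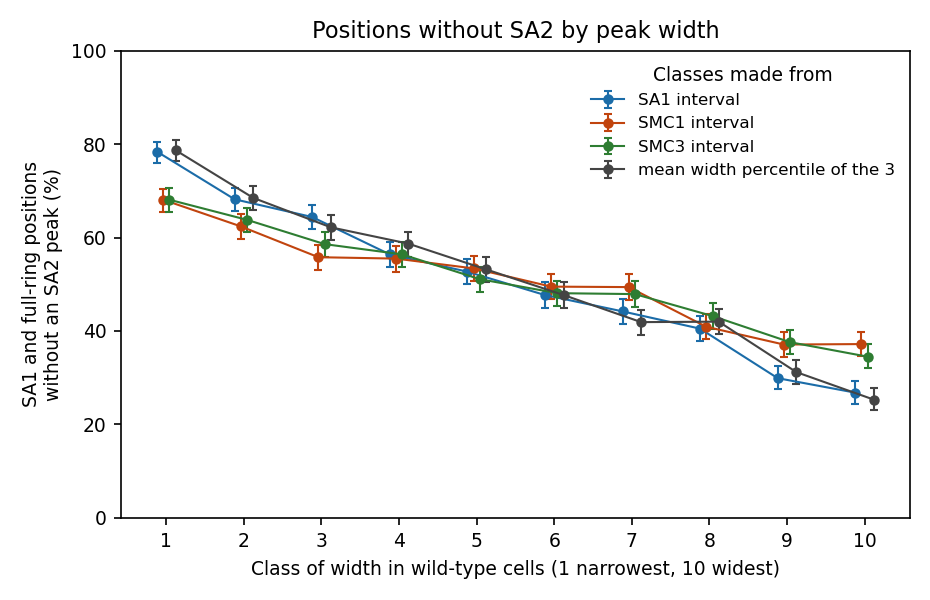
Percent of SA1 and full-ring positions without an SA2 peak in 10 classes of width, narrowest to widest, with classes made from SA1, SMC1 or SMC3 peaks of wild-type cells or from the mean percentile of all 3; bars are 95% Wilson intervals. Each line falls along the classes, with no rise beyond the intervals of neighbouring classes, from 78.4 to 26.8% for SA1 and from 78.7 to 25.3% for the mean of the 3.

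Among the positions themselves, the widths of different subunits were weakly to moderately related. Across the 6568, Spearman's rho was 0.236 between SMC1 and SA1 widths, 0.222 between SMC3 and SA1 widths and 0.417 between SMC1 and SMC3 widths in wild-type cells. Between genotypes rho was 0.452 for SMC1 (6535 positions) and 0.430 for SMC3 (6509 positions). Peaks of 1 list share a library and its depth, so these values describe the lists only.

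SMC3 peaks at these positions were wider in SA1-null than in wild-type cells, while SMC1 peaks had nearly equal medians. The SMC3 medians were 697 bp in SA1-null cells and 552 bp in wild-type cells over 6509 positions, and the change at a position had a median of 141 bp (interval 137 to 145). The SA1-null SMC3 peak was the wider at 87.0% of them, where the share over all SA1 peaks with SMC3 in both genotypes was 87.3%. SMC1 medians were 593 bp in SA1-null cells and 602 bp in wild-type cells over 6535 positions, with a median change of -3.00 bp (interval -6 to 2), and the SA1-null peak was the wider at 49.1%, near the 50.2% over all SA1 peaks. Full-ring positions with SA2 gave nearly the same figures, 87.7% for SMC3 and 49.8% for SMC1. The differences of -0.694 points for SMC3 (interval -1.85 to 0.460) and -0.635 points for SMC1 (interval -2.36 to 1.09) had intervals that include 0. Over the whole lists the SMC3 medians were 652 bp in SA1-null cells and 563 bp in wild-type cells. The SMC1 medians went the other way there, at 535 bp in SA1-null cells and 579 bp in wild-type cells. Widths were matched position by position only at wild-type SA1 peaks.

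The distance to SA2 is given for these positions only and as a description, since the rule excludes any overlap with SA2. The nearest SA2 peak of either genotype was a median of 47926 bp away, with the middle 50% between 16691 and 104160 bp. It lay under 1 kb away at 159 positions (2.42%), at 1 to 10 kb for 15.4%, at 10 to 100 kb for 56.2% and farther for 26.0%. The nearest SA2 peak belonged to SA1-null cells at 47.5% and to wild-type cells at 52.3%, from lists of 6352 and 7741 peaks. At the edge of the rule, the 10 positions closest to an SA2 peak were 23 to 57 bp from it, and all 10 had both ring peaks in SA1-null cells. Just outside it, the 10 full-ring positions with the least SA2 overlap shared 7 to 112 bp, and 9 of the 10 had both ring peaks. Such borderline cases were few, as 15 positions lay under 100 bp from SA2 and 8 of the 6329 with SA2 shared under 100 bp with it, the median being 496 bp.

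Positions with and without SA2 were interspersed. The nearest other full-ring position lacked SA2 for 51.5% of the positions without SA2 (interval 50.3 to 52.7%) and for 52.3% of those with SA2 (interval 51.0 to 53.5%), a difference of -0.714 points (interval -2.44 to 1.01). Of all full-ring positions, 50.9% lacked SA2. As the rule uses the SA2 calls, these shares and the runs below describe the positions and test nothing. A pair of positions can each be the other's nearest, which the intervals do not allow for. Ordered along the chromosomes, the positions without SA2 formed 3255 uninterrupted runs, of which 1597 (49.1%) were single positions. The longest run held 13, on chromosome 6 between 122784295 and 125032230, and 5 runs held 10 or more. Another SA1 peak lay within 1 kb of 8.27% of the positions without SA2 and 6.73% of those with SA2, 1.54 points apart (interval 0.627 to 2.45).

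The positions without SA2 lay on every autosome and on X. The window counts describe these positions only, with no matching count for full-ring positions with SA2. Of 2412 windows of 1 Mb with a wild-type SA1 peak, 1806 (74.9%) held at least 1 position, and the most in a window was 21, among 28 full-ring positions on chromosome 10 between 80000001 and 81000000. Over the 430 windows with at least 10 full-ring positions, the share without SA2 had a median of 52.9%, with 5th and 95th percentiles of 30.0 and 75%. The highest was 11 of 11, on chromosome 6 between 124000001 and 125000000, inside the longest run. The lowest was 1 of 11, on chromosome 11 between 62000001 and 63000000.

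Autosomes resembled each other, and chromosome X stood apart. The share of full-ring positions without SA2 averaged 50.7% ± 1.52 (SD over 19 autosomes), between 48.2% on chromosome 14 and 54.0% on chromosome 16, and was 67.3% on X (148 of 220, interval 60.8 to 73.1%). With autosomal positions weighted to the SA1 widths found on X, the autosomal share was 56.1%. SA1-null SA2 peaks lay at 14.5% of the full-ring positions of X, against 36.4% ± 1.96 on autosomes, and wild-type SA2 peaks at 25.9%, against 31.7% ± 2.33. Positions without SA2 were sparse on X, at 0.913 per Mb against 2.71 ± 0.475 on autosomes, as were full-ring positions in all, at 1.36 against 5.35 ± 0.949 per Mb. All 148 on X had both ring peaks in SA1-null cells, and the autosomal share was 98.8% ± 0.451. The sex of the embryos is not stated in the labels, and its part in these values was not tested.

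**Figure D5:**
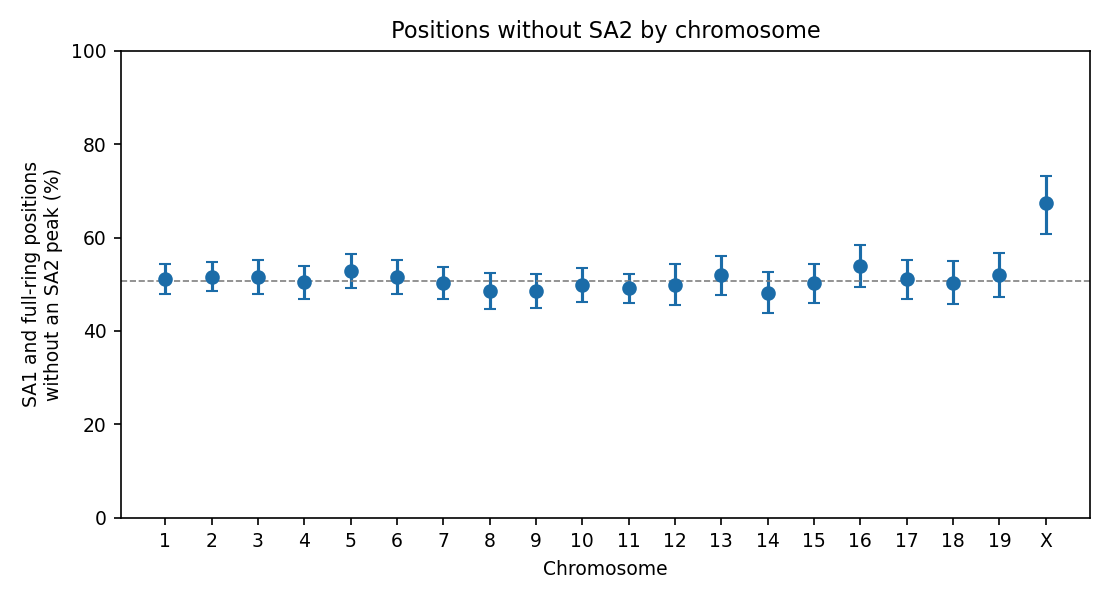
Percent of SA1 and full-ring positions without an SA2 peak on each chromosome, with 95% Wilson intervals and the mean of the 19 autosomes (dashed, 50.7%). The autosomes lie between 48.2 and 54.0%, and X lies at 67.3%. The shares use the SA2 calls of the rule and are a description.

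Some of the widest peaks of this class are named next, ranked by the mean percentile of SA1, SMC1 and SMC3 widths in wild-type cells (mm9, counted from 1). The first, on chromosome 10 from 17441434 to 17443631, carried an SA1 peak of 2198 bp. Its SMC1 peak measured 2267 bp in SA1-null cells and 1956 bp in wild-type cells, and its SMC3 peak 2174 bp in SA1-null cells and 2089 bp in wild-type cells. SA2 was called 3973 bp away in SA1-null cells and 117112 bp away in wild-type cells. The second, on chromosome 16 from 15294455 to 15295484, had SMC1 peaks of 1948 bp in SA1-null and 1677 bp in wild-type cells, with SMC3 at 2023 bp in SA1-null and 1377 bp in wild-type cells. At both, each ring peak was the wider in SA1-null cells.

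The third position lay on chromosome 3 and the fourth on chromosome 15. On chromosome 3 from 52845452 to 52846642, SMC1 measured 1036 bp in SA1-null and 1359 bp in wild-type cells, while SMC3 measured 1571 bp in SA1-null and 1168 bp in wild-type cells. On chromosome 15 from 78277923 to 78279132, SMC1 and SMC3 measured 1185 and 1313 bp in SA1-null cells and 1305 and 1228 bp in wild-type cells. A pair of positions on chromosome 18 followed, from 12884176 to 12885350 and from 78750642 to 78751719, with SMC1 at 1341 and 1375 bp in SA1-null cells and 1348 and 1436 bp in wild-type cells. Their SMC3 peaks measured 1375 and 1459 bp in SA1-null cells and 1160 and 1046 bp in wild-type cells. Since the rank picks positions with wide SMC1 and SMC3 peaks in wild-type cells, narrower SA1-null peaks can follow from the choice alone, and no direction is read from them. The position on chromosome 2 from 152656079 to 152657147 lay 151 bp from an SA2 peak of SA1-null cells. Its SMC1 peak measured 752 bp in SA1-null and 1540 bp in wild-type cells, and its SMC3 peak 2061 and 1045 bp. The last of the 8, on chromosome 11 from 53550425 to 53551672, lay 1014 bp from a wild-type SA2 peak. Its SMC1 peak measured 612 bp in SA1-null and 1111 bp in wild-type cells, and its SMC3 peak 1328 and 1264 bp. The other 6 had their nearest SA2 peak between 3973 and 120907 bp away, counting both genotypes.

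On chromosome X the SA1 peaks of this class had a median width of 520.0 bp, against 543 ± 13.8 bp on autosomes (SD over 19), where the lowest median was 525 bp. The width was not particular to this class. Over all full-ring positions the median was 543 bp on X and ran from 568 bp (chromosome 17) to 611 bp (chromosome 18) on autosomes. The first 3 positions on X by the same rank lay from 33536798 to 33537515, from 74754414 to 74754965 and from 19734506 to 19735163, at ranks 353, 619 and 732 of the 6568. Their SA1 peaks measured 718, 552 and 658 bp. SA2 peaks of SA1-null cells lay 186116, 1796158 and 612772 bp away, and those of wild-type cells 186198, 128230 and 63675 bp. All 3 had SMC1 and SMC3 peaks also without SA1, the SMC3 peaks measuring 576, 983 and 773 bp in SA1-null cells and 611, 748 and 578 bp in wild-type cells.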

How the data were processed

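The authors deposited 10 lists of intervals with 3 columns, chromosome, start and end, and no score. Per the submitters' processing notes, CASAVA 1.7 was among the tools and positions refer to mm9; no source used here names the aligner or the peak caller. Fragments of 100 to 200 bp were selected and amplified with 14 PCR cycles, per the labels' protocols. Per the deposited names, peaks were called against an input at a false discovery rate of 10, read as percent. By those names, 1 input served for wild-type SA1 and for SA2 of either genotype, and the second input for the other libraries. The gene and sequence tables at hand are of GRCm38.p6, and intervals ended beyond its last gene on 10 of 20 chromosomes, so genes and sequences were not used here.

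Starts were read as 0-based. Overlaps (at least 1 bp), distances and widths were computed with Python 3.11.15, numpy 2.4.6 and scipy 1.17.1, and figures drawn with matplotlib 3.10.9. Overlaps were tested on simulated data of 24000 intervals, of which 100% of the planted overlaps were recovered, and bedtools 2.31.1 gave equal counts for 9 lists. Intervals of a median come from order statistics. The rule for named regions was the first 8 by mean width percentile, the first 5 with neither SA1-null ring peak and the first 3 on X. The positions, comparisons and alternatives were chosen with earlier results of these data known.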

Additional observations from a re-analysis of the deposited data

How the results depend on the processing

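Of 45 recomputed values, 36 stayed within the interval of the value reported (for the number of positions, within 1.5 times). No difference of shares changed sign, and the counts, shares and widths could not. Keeping the widest 50% of SA1 peaks left 3430 positions with a median width of 628 bp, of which 99.7% had SMC1, 99.3% SMC3 and 99.2% both in SA1-null cells, 12.6 points above positions with a single ring subunit. Merging peaks closer than 1000 bp gave a median width of 548 bp. The difference in ring peaks between positions without and with SA2 was -0.509 points within classes of SA1 width and -0.313 within classes of the mean width percentile; its range over all settings was -0.847 to -0.313. A 50% overlap, an SA2 distance of 1000 bp, removal of background intervals and autosomes alone moved no value beyond its interval. The mean width percentile and the comparison with a single ring subunit were added after the data were seen. No paired analysis was possible because each list stands for 1 sample, or for 2 in 1 list, and no replicate could be left out. Depth is unknown and peaks have no height, so weak binding below the calling threshold cannot be seen, above all in the short SA2 lists.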
